A study of Macaca mulatta with 102 samples.

Results

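The 46 arrays labelled Healthy.Control, of 102 in the study, were taken alone to describe how the transcriptome of blood T cells varied among rhesus macaques (Macaca mulatta) that had not been transplanted. They came from 45 animals, because animal R.201 gave 2 healthy arrays, which were averaged. CD3 T cells had been sorted by flow cytometry from peripheral blood and their RNA hybridised to an Affymetrix rhesus array. The healthy animals carry no treatment, age or sex in the labels used here, and they lie in 6 labelled batches of 4 to 13 healthy arrays. The other 56 arrays came from recipients of a hematopoietic cell transplant (HCT) and were used here only for comparison. Autologous recipients, given back their own cells, were sampled at day 14 (Auto.D14, 3 arrays), at days 30 to 36 (Auto.D36, 4 arrays) and at day 100 (Auto.D100, 4 arrays). Allogeneic recipients, given cells of another animal, were given nothing against graft-versus-host disease (NoRx.F, 4 arrays), or sirolimus (Siro.F, 4 arrays), the combination labelled Tac.Mtx (6 arrays), belatacept with sirolimus (Bela.Siro, 12 arrays), KY1005 (5 arrays) or KY1005 with sirolimus (KY1005.Siro, 14 arrays). KY1005 is an antibody against OX40 ligand, sirolimus inhibits mTOR, and belatacept blocks CD28 costimulation. The T cells of an allogeneic recipient can come from the donor.

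Blood T cells are a mixture. Naive and central memory cells carry CCR7, the chemokine receptor that brings them into lymph nodes. Effector cells have lost it and carry the cytotoxic granule proteins, among them granzyme B. The balance between these states follows an animal's age and its history of infection, and activation during bleeding and sorting switches on immediate early genes such as FOS within a short time. In RNA from a sorted population, fewer cells of a type and less RNA per cell cannot be told apart.

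The values are log2 RMA intensities of 52865 probe sets, of which 31711 passed a filter on low values (at or above 5.21, the median over the whole table, on 3 arrays or more) and stood for 10692 genes with 1 probe set each. The 45 healthy animals are separate, and p-values of the fits on them measure the spread between these samples. Intensities depend on the probe set as well as on the transcript, so levels were compared between animals and not between genes. All 9 measured genes of a 17-gene T cell list lay above the median level on average. So did 9568 of all 10692 genes, and the count alone therefore does not test the label. ZAP70, the kinase of the T cell receptor, lay at a lowest, median and highest value of 12.16, 12.54 and 12.90. TRAT1, a transmembrane adaptor of the receptor, lay at 10.76, 11.51 and 12.12. CD5 lay at 10.12, 10.83 and 11.61. CD3D, CD3E, CD3G, CD2 and LCK were not analysed here. Genes of other blood cells were measured as well. At or above the median level on average were 11 of 11 monocyte and myeloid genes, 5 of 7 B cell genes, 7 of 8 platelet genes, 3 of 5 erythroid genes and 1 of 9 granulocyte genes. Because 9568 of all 10692 genes lay there too, these counts do not by themselves show that such cells were present.

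The arrays of 4 animals stood apart in RNA integrity. The log2 ratio of the 3′ to the 5′ probe set of actin, a control that rises as RNA is degraded or copied incompletely, had a median of 0.785 and a lowest value of 0.25. It reached 2.94 in R.32, 3.30 in R.207, 3.69 in R.22 and 3.95 in R.208, against 2.06 in the next animal, R.16. By limma with the batch as a factor and Benjamini-Hochberg adjustment, as in the fits on a reference gene below, 8897 of 31711 probe sets (28.1%) moved with this ratio, 3990 up and 4907 down. Without the 4 arrays 605 did. Of the 9 T cell genes, 3 rose with the ratio and 4 fell, against 18.1% and 9.98% of all genes. LAT, the adaptor that links the receptor to its downstream enzymes, fell by 0.59 per log2 unit of the ratio (SE 0.08, adjusted p = 1.5e-07), and it ranged from 7.71 to 11.56 with a median of 10.91. CD6, a receptor that modulates T cell activation, fell by 0.42 (SE 0.06, adjusted p = 3.42e-06) and CCR7 by 0.44 (SE 0.11, adjusted p = 0.0021). The first principal component of the healthy animals took 18.1% of the variance, with R.208 (score 0.73) and R.207 (0.45) far above the next animals, R.202 and R.22 (both 0.17). It correlated with the ratio at r = 0.789 over 45 animals. Without the 4 arrays the first component took 15.2% and its r with the ratio was -0.12. These correlations are descriptions, and the counts below are therefore given with and without the 4 arrays.

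The 2 healthy arrays of 1 animal were closer than arrays of different animals. The labels do not say whether they share an RNA sample. The 2 arrays of R.201 differed by a median of 0.143 log2 units per probe set, while 20 other pairs of arrays of the same batch differed by 0.186 to 0.358. Their correlation across probe sets was 0.992, against 0.937 to 0.980 for the other pairs. Only 65 probe sets (0.205%) differed by more than 1 between the 2 arrays. The median SD from this pair was 0.101 and the median SD between animals was 0.260. In the deposited values few probe sets differed between the labelled batches. The F test of the batch called 2 of 31711 probe sets (0.00631%), and 87 had an unadjusted p below 0.05 (0.274%) while 24.9% had a p above 0.95. Evenly spread p-values would put equal shares below 0.05 and above 0.95, so the test does not tell how much the batches differed before deposit. Whether the values were adjusted for batch before deposit is not given in the sources used here.

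Most genes varied little. Among 9568 genes with a mean at or above the median level, the median SD over the 45 animals was 0.237 and the middle of the distribution ran from 0.186 to 0.323 (quartiles). The 90th percentile was 0.463. An SD above 1 was found in 49 genes (0.512%), and in 43 without the 4 arrays of high actin ratio. The smallest SDs among strongly expressed genes were mostly those of ribosomal proteins. Most of these probe sets lay close to the highest value of their arrays (14.69 to 16.16), where intensities can be compressed, and the part of this in their small SDs was not tested. RPS18, a protein of the small ribosomal subunit, had the smallest SD, 0.045, and lay between 14.23 and 14.42 in all 45 animals. Of the 20 named genes of smallest SD, 10 were named RPS, RPL or RPLP, and FAU, whose product is processed into a ribosomal protein, and RACK1, a ribosome-bound scaffold, stood beside them. B2M, the light chain of MHC class I, lay between 14.30 and 14.55 (SD 0.061). IFITM1, an antiviral membrane protein, lay between 13.67 and 13.87 (SD 0.051), and is a known interferon target. TMSB4X and TMSB10, which bind actin monomers, both had an SD of 0.087. These SDs are those of the probe set of highest mean. The largest SD among the probe sets of a gene was 0.36 for TMSB10, 0.35 for RACK1, 0.16 for IFITM1, 0.14 for TMSB4X and 0.074 for B2M. Among the ribosomal protein genes of the 20 it was 0.37 for RPL30, 0.33 for RPS28, 0.24 for RPL26, 0.086 for RPS6 and 0.084 for RPL23. RPS18, RPLP2, RPL17, RPL7, RPS26 and FAU had 1 probe set each. Over whole lists, the median SD was 0.118 for 25 ribosomal protein genes, 0.179 for 18 proteasome genes and 0.186 for 20 splicing genes, against 0.234 for all 10692 genes.

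**Figure D1:**
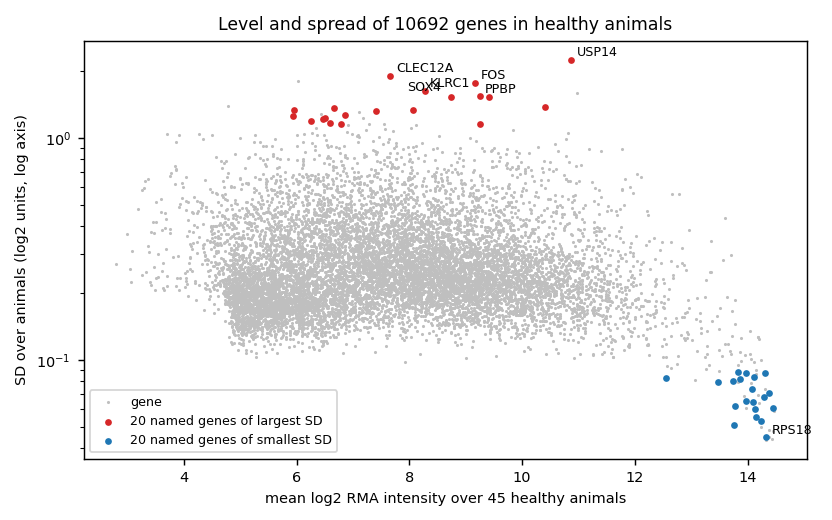
Mean log2 intensity (horizontal) and SD over 45 healthy animals (vertical, log axis) of each of 10692 genes, with the 20 named genes of largest SD in red and the 20 of smallest SD in blue. USP14 stands highest at an SD of 2.25, and RPS18 lowest of the named genes at 0.045.

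The widest differences between healthy animals concerned a small and mixed set of genes. With 1 probe set per gene, USP14 had the largest SD, 2.25. It is annotated as a deubiquitinase bound to the proteasome, and the annotation of its probe sets could not be checked against their sequences. Its level was 5.44 in R.36, near the filter level of 5.21, 10.71 in the median animal and 15.21 in R.60, near the maximum of that array (15.43). Its 5 probe sets ranked the animals alike, with pairwise r from 0.967 to 0.999. CLEC12A, an inhibitory C-type lectin known from myeloid cells, had an SD of 1.91 and ran from 3.29 over a median of 8.50 to 10.12. Its values left a gap between 6.33 and 7.67, with 13 animals below it and 32 above. Of the 4 arrays of high actin ratio, 3 lay below the gap: R.32 at 4.62, R.22 at 4.77 and R.208 at 5.62, and R.207 lay above at 8.97. Taken as a reference gene after its values had been seen, CLEC12A moved with 1 of 31710 probe sets (0.00315%), which has no named gene, while 2319 had an unadjusted p below 0.05.

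FOS, a subunit of the AP-1 transcription factor, ran from 6.73 over 8.69 to 13.99 (SD 1.77), and R.34 held the highest value, well above R.61 at 11.90. KLRC1, which encodes the NKG2A receptor of NK and CD8 T cells, ran from 3.55 over 8.62 to 10.88 (SD 1.63). Of its 6 probe sets, the 5 that passed the filter disagreed, with pairwise r from -0.40 to 0.58. The order of the animals therefore depends on the probe set, and another of the 5 had an SD of 2.32. SOX4, a transcription factor of immature lymphocytes, ran from 4.55 over 8.85 to 11.30 (SD 1.53). The 3 of its 4 probe sets that passed the filter correlated at 0.927 or more, and the other had an SD of 0.16. In SOX4 the lowest animal was R.34, the animal highest for FOS.

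Several of the remaining names are known from other blood cells. The platelet chemokine genes PPBP and PF4 had SDs of 1.54 and 1.37. PPBP ran from 5.84 over 9.38 to 11.82 and PF4 from 7.33 over 10.65 to 13.14. The globin genes HBA and HBB had SDs of 1.53 and 1.16, and HBB had an SD of 0.99 without the 4 arrays. LYZ, which encodes lysozyme, ran from 4.97 over 7.21 to 9.96 (SD 1.31), and S100A9, a subunit of calprotectin in monocytes and neutrophils, from 3.86 over 6.16 to 8.69 (SD 1.19). FCGR3, the low-affinity IgG receptor, had an SD of 1.26, and CD86, a ligand of CD28 on antigen-presenting cells, 1.16. CD1A, a lipid-presenting molecule, ran from 4.62 over 6.23 to 9.24 (SD 1.22). Other names among the 20 of largest SD were COL11A1 (1.36), H2AC25 (1.33), RARRES1 (1.33), CST6 (1.27), PON3 (1.23) and CDK2AP1 (1.15). The SD of CDK2AP1 was 0.96 without the 4 arrays. Counted and not named among the 100 genes of largest SD were 11 uncharacterised loci, 3 genes of the MHC and 2 killer-cell immunoglobulin-like receptors. Leaving out the 4 arrays kept 18 of the 20 names.

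**Figure D2:**
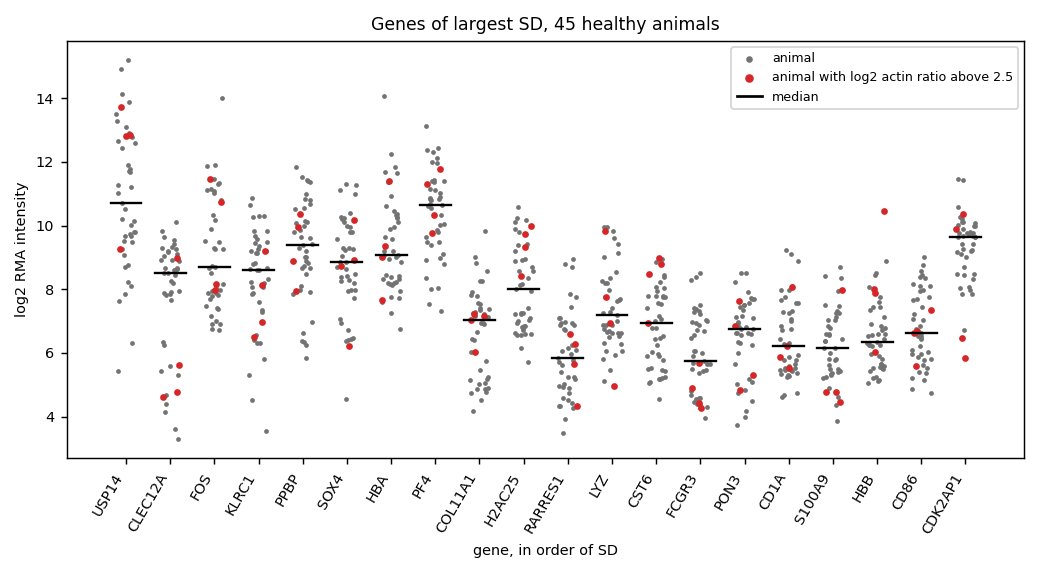
Log2 RMA intensity of the 20 named genes of largest SD in each of 45 healthy animals (points), in order of SD, with the median as a bar and the 4 animals with a log2 actin ratio above 2.5 in red. USP14 spans 5.44 to 15.21, CLEC12A shows a gap between 6.33 and 7.67, and the highest FOS value, 13.99, stands alone.

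Among the lists, the largest median SDs were those of monocyte, innate-like, NK, cytotoxic, helper 17 and immediate early genes. The median SD was 0.761 for 11 monocyte and myeloid genes, 0.663 for 5 genes of gamma-delta and innate-like T cells, 0.652 for 7 NK cell genes, 0.644 for 20 cytotoxic genes, 0.637 for 7 genes of helper 17 and mucosal-associated invariant T cells and 0.627 for 13 immediate early genes. Lists of other blood cells lay lower, at 0.401 for erythroid, 0.380 for platelet, 0.312 for granulocyte, 0.262 for B cell and 0.232 for plasma cell genes. In the cytotoxic list 19 of 20 genes had an SD above the 75th percentile of the 9568 genes, as did 12 of 13 immediate early genes and 2635 of all 10692 genes. The T cell list itself had a median SD of 0.322, and naive and central memory genes 0.308. Genes within a list also moved together to different degrees. Over all pairs within a regularly spaced subset of the 10692 genes, the median Pearson r across animals was 0.0244 (0.0122 without the 4 arrays). It was 0.497 (0.514) for the cytotoxic list, 0.459 (0.483) for the cell cycle, 0.420 (0.454) for immediate early genes, 0.358 (0.421) for naive and central memory genes and 0.605 (0.447) for erythroid genes. These are descriptions, and the genes of a list share the same 45 arrays.

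Many genes moved with cytotoxic content. GZMB, the gene of granzyme B, ran from 11.37 in R.18 over a median of 12.84 to 13.60 in R.45. R.18 and R.204 (11.38) lay apart at the low end, 0.47 below the next animal. With GZMB, 1778 probe sets rose and 703 fell, 7.82% of 31710. Of these 2481, 2441 were also called in the same direction without the 4 arrays of high actin ratio, when 3450 were called in all. Without R.18 and R.204 the count was 1607.

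Of the other 19 measured cytotoxic genes, 16 rose with GZMB, against 7.6% of all genes tested, and their median slope was 0.82 against -0.0017 for all genes. ZEB2, a transcription factor of terminal effector cells, ran from 6.93 over 8.88 to 10.43 and rose by 1.39 log2 units per log2 unit of GZMB (SE 0.11, adjusted p = 2.59e-12). S1PR5, the sphingosine phosphate receptor of circulating effector cells, ran from 6.17 over 7.82 to 9.30 and rose by 1.14 (SE 0.08, adjusted p = 2.21e-13). TBX21, which encodes T-bet, the master regulator of cytotoxic and type 1 helper programmes, ran from 8.06 over 9.92 to 11.20 and rose by 1.08 (SE 0.08, adjusted p = 1.77e-12). GZMH, a neighbouring granzyme gene, rose by 1.09 and ran from 9.88 over 12.03 to 13.11. The granule protein gene GZMA did not pass the test (slope -0.15), nor did KLRG1 (0.09) and EOMES (0.25).

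NK receptors followed the same axis. Of 7 NK cell genes 5 rose, against 7.6% of genes tested, with a median slope of 0.72, and 2 of the 5 also stand in the cytotoxic list. KLRF1, an activating receptor of NK and effector CD8 cells, rose by 1.31 (SE 0.15, adjusted p = 4.32e-08). NKG7 and KLRD1, the 2 shared genes, rose by 1.02 and 0.80. TYROBP and NCAM1 (the latter encoding CD56) did not pass the test. The largest slopes of named genes were those of COL11A1 (1.84, SE 0.27, adjusted p = 6.29e-06), FCGR3 (1.45, SE 0.28, adjusted p = 0.000488), ZEB2, LITAF (1.36) and FGFBP2 (1.36). CD8A rose by 0.24 (SE 0.06, adjusted p = 0.00389). Because CD3 cells were sorted, NKG7 and KLRF1 may be read from T cells or from NK cells left in the gate, and these cannot be told apart.

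Opposite to GZMB stood 4 of 10 naive and central memory genes, against 2.59% of all genes tested. These were CCR7 (slope -0.63, SE 0.17, adjusted p = 0.0178), MYC, LTB (lymphotoxin beta, slope -0.27) and TCF7 (the stem-like regulator TCF1, slope -0.25). Without the 4 arrays 7 of 10 fell, SATB1, KLF7 and FOXP1 joining them, against 3.69% of genes. The largest negative slopes were those of SOX4 (-1.23, SE 0.38, adjusted p = 0.0349), CD1A (-1.09), SLC16A10 (-0.92), SLC14A1 (-0.80) and BCL7A (-0.76).

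CCR7 itself ran from 8.32 over 9.93 to 11.17. Its 4 lowest values were those of R.207 (8.32), R.22 (8.46), R.13 (8.59) and R.208 (8.75), so that 3 of the 4 arrays of high actin ratio lay at its low end. It moved with 5027 of 31710 probe sets (15.9%), 2627 up and 2400 down. Without the 4 arrays this fell to 2425, of which 1482 were among the 5027, and without R.207 and R.22 alone it was 2814. With the actin ratio as a covariate 1838 were called.

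Of 9 other naive and central memory genes, 4 rose with CCR7 (5.25% of all genes did), and 5 without the 4 arrays (3.11%). MYC, the growth regulator, ran from 9.07 over 10.27 to 11.25 and rose by 0.63 (SE 0.07, adjusted p = 5.71e-07). SATB1, a chromatin organiser of T cells, ran from 6.87 over 10.10 to 11.30 and rose by 0.61 (SE 0.12, adjusted p = 0.000836). Of 20 cytotoxic genes, 9 fell with CCR7 and 13 did without the 4 arrays. Over all genes these shares were 11.3% and 6.31%. Among the largest slopes were IL6ST, the shared receptor subunit of the IL-6 family (0.90, SE 0.16, adjusted p = 0.000272), and TNFSF8, which encodes CD30 ligand (0.80, SE 0.08, adjusted p = 2.83e-08). KLF4, a quiescence factor, fell with CCR7 (slope -0.95, SE 0.20, adjusted p = 0.00112). The Pearson correlation of CCR7 with GZMB was -0.53 (Spearman rho -0.55, adjusted p = 0.00025 by permutation over 25 pairs), -0.49 within batches and -0.64 without the 2 animals farthest from the CCR7 median.

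**Figure D3:**
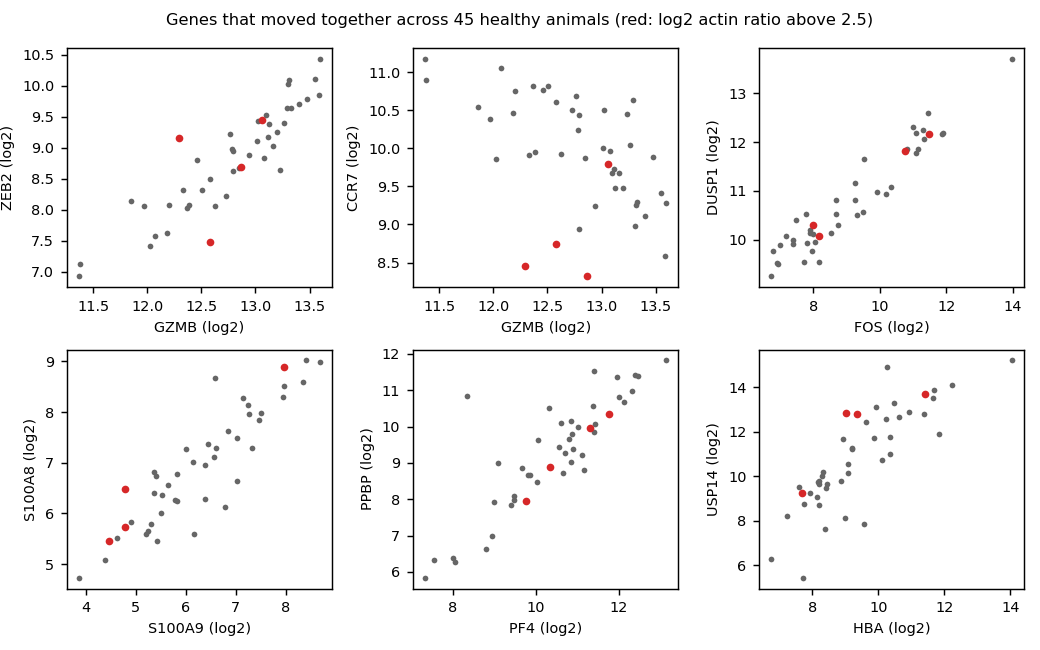
Log2 intensities of 6 gene pairs in 45 healthy animals, each point 1 animal and the 4 animals with a log2 actin ratio above 2.5 in red. ZEB2 rises with GZMB, CCR7 falls with it, and FOS with DUSP1, S100A9 with S100A8, PF4 with PPBP and HBA with USP14 rise together. The pair of HBA and USP14 was chosen after its values were seen.

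The CD4 and CD8 coreceptor genes spread less than CCR7 (SD 0.73) and GZMB (SD 0.56), but not less than every naive gene named above. TCF7 had an SD of 0.25 and LTB of 0.27. CD8A ran from 11.63 over 12.36 to 12.76 (SD 0.23) on the probe set used, CD8B from 9.48 over 10.37 to 11.19 (SD 0.42) and CD4 from 6.10 over 6.74 to 7.43 (SD 0.31). CD8A and CD8B correlated (r = 0.41, rho = 0.34, adjusted p = 0.00843 by permutation), but in the fit on CD8A over all probe sets CD8B did not pass (slope 0.75, SE 0.27, adjusted p = 0.133). CD4 against CD8A did not pass the threshold by Pearson r (-0.31, adjusted p = 0.0542) and passed it by Spearman rho (-0.37, adjusted p = 0.0234). The other probe set of CD8A had an SD of 0.43. The 2 probe sets agreed only at r = 0.36, so that the order of the animals and the slopes on CD8A depend on the probe set. With CD8A, 435 probe sets rose and 140 fell, 1.81% of 31709, and 417 were called without the 4 arrays, 295 of them in common. Without R.18 and R.61 only 23 were. With CD8A rose 9 of 20 cytotoxic genes (12 without the 4 arrays), against 2.44% of genes (1.77%), led by FGFBP2 at 2.98 (SE 0.61, adjusted p = 0.0097). Of 7 NK cell genes 2 rose (3 without the 4 arrays), against the same shares, with KLRF1 at 2.24 (SE 0.51, adjusted p = 0.0155). Among 5 other CD8 lineage genes, CD8B included, 0 rose, a list too short to set against 2.44%. TNFSF8 fell with CD8A (slope -1.54, SE 0.40, adjusted p = 0.0346).

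TNFSF8 rose with CD4, by 1.59 (SE 0.26, adjusted p = 0.00189), and passed the test without the 4 arrays as well (adjusted p = 0.0182). With CD4, 352 probe sets rose and 210 fell, 1.77% of 31710. Only 26 were called without the 4 arrays, 18 of them in common, and 957 without R.16 and R.202. CCR7 rose with CD4 by 1.39 (SE 0.31, adjusted p = 0.0176), and CD28, the receptor of the costimulation that belatacept blocks, by 0.80 (SE 0.19, adjusted p = 0.0297). Neither passed without the 4 arrays (adjusted p = 0.198 and 0.15). LIMS1 rose with CD4 (1.61, SE 0.40, adjusted p = 0.0336) and fell with CD8A (slope -2.08, SE 0.52, adjusted p = 0.0302). Among 3 other CD4 lineage genes 0 were called with CD4, and their median slope was -0.08. Likewise 0 of 11 regulatory T cell genes and 0 of 5 type 2 helper genes were called. Over all 10691 genes 74 rose and 106 fell, and at such shares short lists would hold few calls.

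Genes of the OX40 pathway, the target of KY1005 in the wider study, varied moderately in untransplanted animals. TNFRSF4, which encodes OX40, ran from 6.92 over 7.71 to 8.33 (SD 0.29), and TNFSF4, its ligand, from 4.54 over 5.42 to 5.88 (SD 0.38). For TNFSF4, 14 animals lay below the median level of all values, 5.21. FOXP3, the regulator of regulatory T cells, ran from 4.52 over 5.08 to 5.46, below that level in 34 animals. FOXP3 did not correlate with CTLA4 past the threshold (r = 0.19) nor with IL2RA (r = 0.26). CCR4 and GATA3, a chemokine receptor and the regulator of type 2 helper cells, rose together (r = 0.62, rho = 0.59). MKI67, a marker of dividing cells, ran from 5.45 over 6.07 to 7.27 and correlated with TOP2A at 0.46 (rho = 0.52), and at 0.64 without the 4 arrays.

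FOS moved with a set of immediate early genes. With FOS, 208 probe sets rose and 177 fell, 1.21% of 31710. Of 12 other immediate early genes 6 rose, against 0.795% of all genes tested. DUSP1, a phosphatase that shuts off MAP kinases, ran from 9.25 over 10.52 to 13.70 and rose by 0.57 per log2 unit of FOS (SE 0.03, adjusted p = 1.03e-18). The pair correlated at r = 0.956 (rho = 0.920, adjusted p = 2.78e-05 by permutation), at 0.956 within batches and at 0.945 without the 2 animals farthest from the FOS median. JUNB, an AP-1 partner of FOS, ran from 7.60 over 8.88 to 10.34 and rose by 0.29 (SE 0.03, adjusted p = 4.69e-08).

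JUND rose with FOS by 0.17 and CD69, the early activation antigen, by 0.21. Outside the list, RGS1, a regulator of chemokine receptor signalling, rose by 0.32 (SE 0.06, adjusted p = 0.00269) and IFNG, the gene of interferon gamma, by 0.29 (SE 0.07, adjusted p = 0.0206). FOS did not move with CCR7 (r = -0.03) past the threshold, and its slope on GZMB was not past it either. NR4A2, an immediate early nuclear receptor that ran from 5.83 over 7.91 to 10.12, did rise with GZMB (1.25, SE 0.27, adjusted p = 0.00146). Of 13 immediate early genes 4 rose with GZMB (NR4A2, KLF4, NR4A1 and IER2), against 7.6% of genes tested. With CCR7, 5 fell (KLF4, NR4A2, EGR2, NR4A1 and IER2), against 11.3%, and BTG2 rose, and without the 4 arrays 2 fell and 0 rose. The count with FOS was 1435 without the 4 arrays, 380 of them among the 385, and 128 without R.34 and R.61. The labels give no time from bleeding to lysis, and its part in these values was not tested.

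Myeloid transcripts moved together across animals. With S100A9, 124 probe sets rose and 8 fell, 0.416% of 31710, and without the 4 arrays 100 were called, 93 in common. Without R.202 and R.18 the count was 70. R.202 held the highest S100A9 value (8.69) and R.18 the lowest (3.86). Of 10 other monocyte and myeloid genes 5 rose, against 0.486% of genes tested. S100A8, the partner of S100A9 in calprotectin, ran from 4.73 over 6.77 to 9.02 and rose by 0.89 (SE 0.07, adjusted p = 1.1e-11). LYZ rose by 0.77 (SE 0.13, adjusted p = 0.000803), VCAN, the proteoglycan of classical monocytes, by 0.63 (SE 0.07, adjusted p = 1.14e-07), CYBB by 0.43 and CD14 by 0.31. FCN1, CSF1R, CD68, CLEC7A and TYROBP did not pass the test. Of 9 granulocyte genes 2 rose, CAMP by 0.43 and CSF3R by 0.19. TYROBP, an adaptor that NK and myeloid cells share, ran from 8.08 over 9.70 to 12.34.

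Platelet transcripts varied apart from the myeloid ones, with r = 0.01 between S100A9 and PF4. PF4 moved with 11 probe sets (0.0347%), all upward, of which 10 were also called without the 4 arrays, and with 19 when R.36 and R.16 were left out. PPBP rose by 0.99 (SE 0.09, adjusted p = 6.15e-09), and the pair correlated at 0.863 (rho = 0.832), 0.857 within batches and 0.826 without the 2 animals farthest from the PF4 median. The other named genes were RGS18 (0.60), CAVIN2 (0.60), GNG11 (0.44) and CLEC1B (0.35), the last encoding the platelet podoplanin receptor CLEC-2. Of 7 platelet list genes 2 rose, PPBP and NRGN (0.30), against 0.0561% of genes tested. MS4A1, which encodes CD20 of B cells, ran from 3.88 over 5.31 to 7.73 and moved with 2 probe sets (0.00631%), neither of a named gene, and with 0 when R.213 and R.216 were left out (limma, 1323 with an unadjusted p below 0.05). It correlated with JCHAIN (r = 0.60, rho = 0.52, adjusted p = 5e-05) and with CD79B (r = 0.36, rho = 0.36, adjusted p = 0.0241 by permutation). The pair with CD79B did not hold without the 2 animals farthest from the MS4A1 median (r = 0.28, adjusted p = 0.102).

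The probe sets annotated to USP14 moved with the globins. Their annotation could not be checked against probe sequences here, so the name is that of the annotation. USP14 was added as a reference gene after its values had been seen. It moved with 2 of 31706 probe sets (0.00631%), those of HBA and HBB, the alpha and beta chains of hemoglobin. HBA rose by 0.56 per log2 unit of USP14 (SE 0.06, adjusted p = 1.12e-07, r = 0.843 within batches) and HBB by 0.42 (adjusted p = 9.4e-07, r = 0.817). Both passed without the 4 arrays. HBA ran from 6.76 over 9.08 to 14.06, with the highest value of USP14 (15.21) and of HBA in the same animal, R.60, and the next HBA value, 12.24, in R.48. Taken as the reference gene, HBA moved with 24 probe sets (0.0757%), 22 upward, and with 6 when R.60 and R.48 were left out. Over all animals HBG2, ALAS2 and IFIT1B rose by 0.45, 0.26 and 0.31 beside HBB and USP14. ALAS2, the heme synthesis enzyme of red cell precursors, ran from 5.17 over 6.19 to 8.18. Of the 5 erythroid genes 2 rose, HBB and ALAS2, against 0.0748% of genes tested.

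Interferon-stimulated genes varied more than most genes, with a median SD of 0.444 over 19 genes against 0.234 for all, and few of them moved with MX1. MX1, an antiviral GTPase, ran from 6.63 over 7.69 to 8.74, with R.32 and R.43 farthest from the median. It moved with 3 of 31710 probe sets (0.00946%), all of the interferon list, whose 3 of 18 stand against 0.0281% of genes tested. IFI27 rose by 1.07 (SE 0.19, adjusted p = 0.0187), ISG15, a ubiquitin-like modifier, by 0.53 (SE 0.09, adjusted p = 0.014) and MX2 by 0.52 (SE 0.09, adjusted p = 0.0187). All 3 passed without the 4 arrays. None did without R.32 and R.43, when limma called 0 probe sets and 876 had an unadjusted p below 0.05. IFI27 ran from 6.07 over 7.53 to 10.49 and ISG15 from 7.31 over 7.93 to 9.30. The other 15 of 18 genes of the list did not pass, and MX1 with IFIT1 gave r = 0.10.

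Of 33 listed gene pairs, 25 could be measured and 16 passed the threshold by Pearson r, 14 of them positive. The negative ones were CCR7 with GZMB and CCR7 with CD8A (r = -0.49, rho = -0.51, adjusted p = 0.000885 by permutation). Among the others named above in pairs, GZMB correlated with TBX21 at 0.909, with GZMH at 0.888, with NKG7 at 0.858 and with KLRF1 at 0.812, and S100A8 with S100A9 at 0.898. Their Spearman rho values lay between 0.757 and 0.903. MX1 correlated with ISG15 at 0.677 and at 0.623 without the 2 farthest animals. TSC22D3 and FKBP5, targets of the glucocorticoid receptor, correlated at 0.553 (rho = 0.498). By Spearman rho 17 passed, within batches 16, without the 2 farthest animals 15 and without the 4 arrays 17.

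With the 4 arrays left out, the leading components are given as a description, by genes of large loading. Such loadings favour genes of large SD, so r with the score stands beside each gene. The first component (15.2% of variance) set LITAF (r = -0.87 with the score), KLRF1 (-0.82), ZEB2 (-0.86) and IL7 (-0.91) against SOX4 (0.63), CD1A (0.68) and BCL7A (0.72). The second (10.3%) set FOS (0.62), DUSP1 (0.65) and CD86 (0.68) against PPBP (-0.33), KLRC1 (-0.26) and IFIT1 (-0.50). ZNF217 (-0.84) and SLC30A7 (-0.82) followed it more closely with smaller loadings. The third (7.07%) set NR4A2 (0.48), FZD10 (0.59) and FN1 (0.53) against IFI27 (-0.62), HBA (-0.29) and USP14 (-0.18), the last 2 only weakly tied to the score.

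The spread of the healthy group was compared with that inside the 15 transplanted groups (56 arrays), by a Levene-type fit of absolute deviations from the group means over all arrays. The arrays of this fit are not all separate, because some recipients gave several arrays and 11 animals had both a healthy and a transplanted array. Some groups also mix sampling days, such as Bela.Siro.F (days 26 to 105) and Tac.Mtx.F (days 26 to 67). The median SD per probe set was 0.260 in healthy animals and 0.264 within transplanted groups. Transplanted groups were wider for 164 probe sets (0.517%) and healthy animals for 64 (0.202%). Without arrays with a log2 actin ratio above 2.5, 150 and 21 were called, 148 in common in all. Wider among healthy animals were CD1A (SD 1.22 against 0.87, adjusted p = 0.0184), BTBD1 (0.82 against 0.50, adjusted p = 0.0105) and GRAMD1C (0.81 against 0.51, adjusted p = 0.0119). FZD10, BCL7A, EXPH5, TAOK1 and DEPDC7 were also called, and these 5 lost the call without the arrays of high actin ratio.

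Wider within transplanted groups were SERPINE2, a protease inhibitor (0.48 in healthy animals against 1.14, adjusted p = 0.000136), CCL23 (0.37 against 1.19, adjusted p = 0.00444) and DEFA1, a neutrophil defensin (0.35 against 1.12, adjusted p = 0.00728). SHCBP1 (0.40 against 1.01, adjusted p = 0.00485) and E2F8 (0.42 against 0.98, adjusted p = 0.0103), genes of dividing cells, were also among them. ZBED2 lost its call without the arrays of high actin ratio. Of 18 cell cycle genes 5 were wider in transplanted groups, against 0.72% of genes tested, and of 20 cytotoxic genes 1. With deviations from group medians in place of means, 4 probe sets were called in all and none of the 16 named genes was, so that these calls rest on the choice of centre.

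Whether an animal's level recurred on its other arrays was examined in 8 animals with a healthy array and at least 1 array in a transplanted group that held another of them, 22 arrays in all and 14 of them from recipients. An F test of the animal, with the group as a factor, called 244 of 31711 probe sets (0.769%), and 138 without the arrays of high actin ratio, 115 in common. Leaving out 1 animal gave 17 (without R.200) to 603 (without R.13) calls, with 41 without R.202, 58 without R.201 and 147 without R.62. Of the 8 animals 3 were sampled again as Siro.F recipients, in which T cells may be the donor's. The healthy and autologous arrays alone gave 674.

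OCA2, a melanosomal transporter gene, had the smallest p (F = 52.6, adjusted p = 9.12e-05). In R.200 it lay at 6.45 on the healthy array and at 6.51, 7.03 and 6.36 after autologous HCT. In R.201 it lay at 4.62 and then at 4.59, 4.59 and 4.35. In the 3 Siro.F animals it lay higher than before, at 7.08 against 6.00 in R.13, 5.57 against 4.46 in R.16 and 7.22 against 6.06 in R.18. CTNNA1, which encodes alpha-catenin, was called on 3 of 3 probe sets (F = 24.1, adjusted p = 0.00163). ERAP2, an aminopeptidase that trims peptides for MHC class I, was called on 1 of 2 probe sets (F = 24.1, adjusted p = 0.00163). It lay at 10.04 in R.201 and at 9.29, 8.96 and 9.48 after transplant, and at 7.29 and 7.66 in R.60.

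KLHL29, PMS2, ZNF534, KANSL2, BEAN1, FAM110C and NAP1L2 completed the 10 genes of smallest p, and all 10 passed without the arrays of high actin ratio. Of the 40 probe sets annotated to MHC genes tested, 6 were called, against 0.769% of all probe sets tested. No gene name was carried by 110 of the 244, and by 27535 of all 52865 probe sets before the filter. Of the 20 named genes of largest SD, 2 were called (10%, against 0.72% of genes tested). PON3, a lactonase, gave adjusted p = 0.00908 and CST6, a protease inhibitor, 0.0386, and neither passed once those arrays were left out (0.0581 and 0.138). PON3 lay at 4.51 in R.200 before and at 4.10 to 4.23 after autologous HCT, but at 8.52 and then 5.57 in R.13 and at 8.51 and then 5.72 in R.16 after allogeneic HCT. The healthy arrays that ranked these genes by SD also enter this fit. USP14 (F = 1.69, adjusted p = 0.577) and FOS (F = 0.63, adjusted p = 0.882) did not pass.

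**Figure D4:**
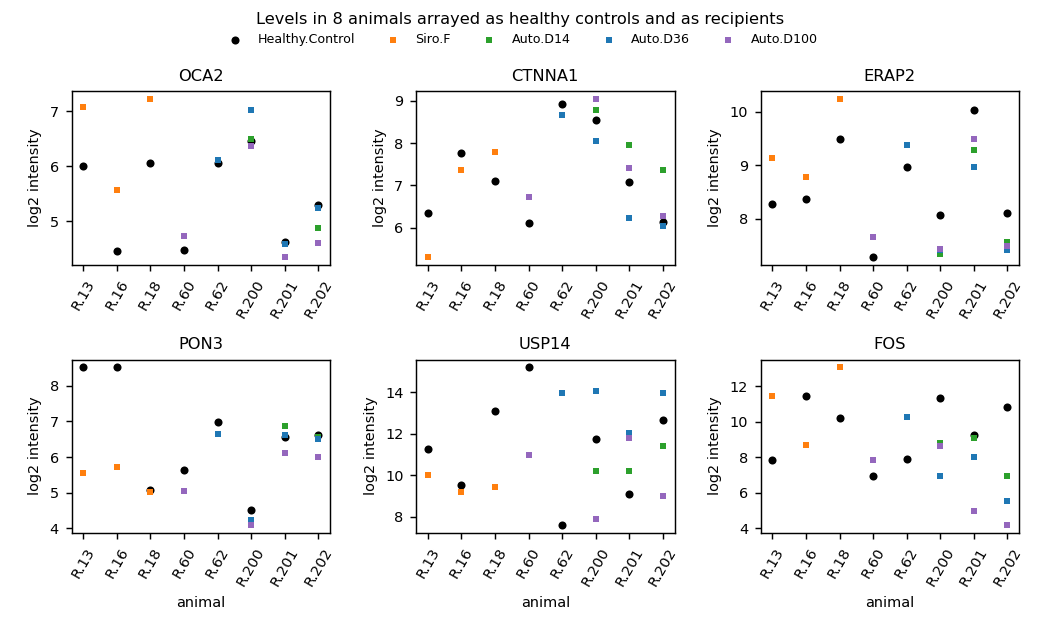
Log2 intensity of 6 genes in 8 animals, with the healthy array as a black circle and arrays after autologous (Auto) or allogeneic (Siro.F) HCT as coloured squares. For OCA2 the 4 arrays of R.201 lie at 4.35 to 4.62 and those of R.200 at 6.36 to 7.03, while the arrays of 1 animal spread more widely for USP14 and FOS.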

How the data were processed

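The authors deposited log2 intensities of 52865 probe sets on 102 arrays. RMA and affy are named, without versions, per the submitters' processing notes; the labelling started from 70 to 85 ng of total RNA, per the labels' protocols. No array's raw scan was used here. Array medians among healthy samples lay between 5.16 and 5.31, and the number of arrays limits the precision. The genes and lists were chosen with earlier results of these data known. Groups, batches and animals were taken from the labels.

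Probe sets were named from the platform annotation: 24969 had 1 gene, 361 several and 27535 none. Of the first, 24629 were found in the RefSeq gene table and 0 symbols changed. A gene stands for its single-gene probe set of highest healthy mean. After 99 control probe sets were left out, 31711 probe sets passed the filter. Slopes, batch, spread and animal effects were fitted with limma 3.58.1 in R 4.3.3 (lmFit, eBayes, Benjamini-Hochberg at 0.05) on all of them, with the labelled batch as a factor, except that the animal fit had the group in its place. Scripts were tested on simulated data. Pairs were tested with 100000 two-sided permutations in Python 3.11.15, which give a smallest p of 1e-05.

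Named were the 20 genes of largest SD with a mean of at least 5.21, the 20 of smallest SD with a mean of at least 8.58, for each reference gene the 5 largest slopes each way past the threshold and up to 4 members of a list with values, the 8 largest differences in spread each way, the 10 smallest p of the animal fit, and 9 genes fixed by name (CD4, CD8A, CD8B, CCR7, GZMB, FOXP3, MKI67, TNFRSF4, TNFSF4). Where a short group of calls is listed whole, the further names were chosen after their values were seen. Immunoglobulin, T cell receptor, MHC, KIR and uncharacterised loci were counted, not named. Alternatives were no batch term, no filter, ranks, quantile normalization, a trended robust prior, array A of R.201 alone, leaving out the 2 animals farthest from the median, and, added after seeing the data, the actin ratio and the 4 arrays with a high one. USP14, HBA, CLEC12A and SOX4 were added as reference genes after seeing the data. Sequences, promoters and genes of the sex chromosomes were not analysed here.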

Additional observations from a re-analysis of the deposited data

Results flagged for a closer look

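Among the 8 animals arrayed before and after transplant, 30 sets of 4 or 8 arrays of 1 named gene in 1 group were examined for 1 array far from the others. In unselected values chance alone gives this in about 1 of 20 sets. That rate does not apply here, because the genes were those of smallest p in the animal fit on these arrays. Found were 6 such sets. KLHL29, a gene of the kelch family, stood high in R.200 on 3 of its arrays, at 5.02 among the healthy arrays of these 8 animals (the others 3.68 to 3.93), at 5.49 among Auto.D36 arrays (3.68 to 3.77) and at 4.62 among Auto.D100 arrays (3.38 to 3.54). BEAN1 stood high in R.62, at 7.52 among healthy arrays (3.84 to 4.30) and at 7.27 among Auto.D36 arrays (4.19 to 4.67). ERAP2 stood high in R.201 among Auto.D100 arrays, at 9.48 (7.43 to 7.66). These genes were chosen for differences between the same animals, so the number found and the recurrence are descriptions.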

How the results depend on the processing

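Of 177 alternative values for counts of calls and of names, 131 lay within 1.5 times the reported one and 46 did not. For single genes and pairs, 1170 kept direction and side of the threshold, 190 lost and 3 gained the call, and 9 reversed, all of them pairs not past the threshold. The cause was not tested unless fewer arrays or another scale made the change. Against the counts given above, no batch term gave 1635 for CD4, 1363 for CD8A, 6 for MS4A1, 17 for PF4, 879 for FOS, 6 for USP14 and 1137 for SOX4. No filter gave 286 for CD4 and 6 for MS4A1. Quantile normalization gave 124 for CD4, 2321 for CD8A and 2 for CLEC12A. Ranks gave 610 for FOS and 15 for HBA. Leaving out the 2 animals farthest from the median gave 957 for CD4, 23 for CD8A, 2814 for CCR7, 1607 for GZMB, 0 for MX1 (limma calls, whose unadjusted counts stand above), 70 for S100A9, 0 for MS4A1, 19 for PF4, 128 for FOS, 6 for HBA, 1288 for SOX4 and 3424 for the actin ratio. The actin ratio as a covariate gave 35 for CD4, 307 for CD8A, 1838 for CCR7, 1 for MS4A1, 578 for FOS and 736 for SOX4. Without the 4 arrays of high ratio the counts were 26 for CD4, 2425 for CCR7, 1 for MS4A1, 1435 for FOS, 702 for SOX4 and 605 for the ratio itself. Deviations from group medians gave 4 calls of spread against 228. The replicate block by animal gave 233, with an estimated correlation of -0.01, and leaving out a group gave 170 to 289. The animal fit gave 674 with autologous and healthy arrays, 138 without high actin ratios and 17 to 603 without 1 animal. S100A9 with FCN1 (-0.02) turned to 0.0387 within batches, 0.0516 without the farthest animals and 0.0154 with quantile normalization. S100A9 with PF4 (0.01) turned to -0.0191 within batches and -0.0149 without the 4 arrays. ALAS2 with SLC25A37 (-0.03) turned to 0.0681, 0.0340 and 0.21 without the farthest animals, with quantile normalization and without the 4 arrays, and FOS with CCR7 to 0.0721 without them. Averaging the probe sets of each gene kept 14 of the 20 names of largest SD and 12 of the 20 of smallest. Promoter motifs and the batch test without a batch term were not run. Genes near the filter level are limited by background intensity.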

Other observations

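SOX4, added as a reference gene after its values were seen, moved with 441 of 31708 probe sets (1.39%), 232 up and 209 down, and with 702 without the 4 arrays of high actin ratio, 368 of them in common. Without R.34 and R.208 the count was 1288. BCL7A, a chromatin remodelling subunit, rose with it by 0.48 (SE 0.05, adjusted p = 3.58e-08, limma with Benjamini-Hochberg adjustment), SLC16A10 by 0.43, BTBD1 by 0.40, TMEM213 by 0.34 and SWAP70 by 0.33. KLF4 fell with SOX4 (slope -0.48, SE 0.09, adjusted p = 0.00324), as did CFD (-0.45), PON2 (-0.39) and S100A8 (-0.39). Of 10 naive and central memory genes 3 rose, FOXP1, SATB1 and MYC, against 0.804% of genes tested.

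Genes known to answer to glucocorticoids also varied more than most genes. The median SD of 13 such genes was 0.595 against 0.234 for all genes, and 10 of them lay above the 75th percentile of SD. SGK1, a kinase, ran from 5.49 over 6.81 to 8.90 (SD 0.91), and DDIT4, an inhibitor of mTOR signalling, from 8.11 over 9.59 to 10.88 (SD 0.82). DUSP1 stands in this list and in the immediate early list. Clock genes were steadier, with a median SD of 0.261 over 9 genes. PER2 ran from 4.76 to 5.44 (SD 0.16), whereas BHLHE40 ran from 8.57 over 10.14 to 11.34 (SD 0.71) and RORA from 7.77 over 10.24 to 11.26 (SD 0.64). Among genes of helper 17 and mucosal-associated invariant T cells, with a median SD of 0.637 over 7 genes, ZBTB16, the regulator of innate-like T cells, ran from 4.84 over 6.76 to 8.74 (SD 0.69). CXCR6, a tissue-homing receptor, ran from 5.14 over 6.48 to 8.18 (SD 0.76). SLC4A10, known from mucosal-associated invariant T cells, rose with GZMB by 0.83. It was the 1 gene of 7 in its list to do so, against 7.6% of genes tested, and the list's median slope was 0.05.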
